A study of Rattus norvegicus with 6 samples.

Results

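The rat major histocompatibility region was examined as the stretch of chromosome 20 between positions 1500000 and 5300000. Positions are those of the deposited files, and no source used here names their genome build. A locus was taken as a member when all of its listed transcript events lay inside that stretch, whatever its level. Of the 13713 loci in the 6 libraries, 110 met this rule, and they spanned 1814661 to 5269328. They carried 99 distinct Ensembl gene IDs. Each of 8 IDs was attached to 2 loci, and 3 loci had no ID.

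The libraries were made from vascular smooth muscle cells, the contractile cells of the vessel wall, of SD rat aorta. Of the 6 libraries, 2 came from cells given a control virus, labelled wild type, and 4 came from cells labelled SLC2A10-/-, which the study describes as knockdown by short hairpin RNA virus in cultured cells at passage 3. SLC2A10 encodes the glucose transporter GLUT10. The 4 knockdown libraries were 2 for each of 2 interfering sequences, called sequence 2 and sequence 3 from a reading of the sample titles. The titles write siRNA, the extraction text names frozen aorta and the design text names mice, so the model is described with these labels in conflict, and the age of the animals is not stated. Whether the replicates were separate cultures is not stated, and the p-values then reflect only the spread among these libraries, which may be technical. In bulk RNA of this kind, fewer cells of a type and less RNA per cell cannot be told apart.

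The major histocompatibility region holds the genes by which cells show protein fragments to T cells. Class I heavy chains present fragments made inside the cell. They are loaded with the help of the TAP transporter and tapasin, from fragments cut in part by the immunoproteasome, whose inducible subunits are encoded in the same region. Class II chains present fragments taken up from outside and are typical of professional antigen-presenting cells, while the DM chains exchange the fragments they carry. The class III stretch between them holds complement components, tumour necrosis factor and many genes with no role in presentation. Interferons raise class I, TAP and immunoproteasome genes in most cell types, vascular smooth muscle included. In the rat, class I genes lie on both sides of the class II genes. In the RefSeq gene table of assembly GRCr8, 67 symbols on chromosome 20 begin with RT1-, the rat prefix, and 19 of these are pseudogenes. There RT1-Bb, RT1-DOb, Tap2, Psmb8, Tap1, Psmb9, RT1-DMb and RT1-DMa follow each other as neighbours. That table carries no Ensembl IDs, so 0 of the 99 IDs were matched to a name. The loci are therefore given by ID and position, none is assigned to a named gene, and the label of the region could not be checked against gene names. For the same reason the targeted gene and the markers of smooth muscle and of other cell types were not analysed here, and each direction rests on the sample labels.

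In this region more loci were lower in the knockdown libraries than over all loci, while the absence of higher loci lay near the background. The level of a locus is in FPKM, fragments normalised for transcript length and for library size, and is the larger of its summed transcript starts and its summed transcript ends. Of 76 loci with at least 1 FPKM in at least 2 libraries, 14 were lower in the knockdown libraries and 0 were higher at an adjusted p under 0.05 (limma on log2(FPKM + 1), Benjamini-Hochberg over all 10648 tested loci). That was 18.4% of the tested loci of the region, against a background of 2.86% lower and 2.25% higher over all tested loci. Without control replicate 1 or control replicate 2, 9 of 72 loci were lower in each case, or 12.5%, against 1.14% of all loci. Of the 14, XLOC_026852 and XLOC_026907 were under 1 FPKM in all 4 knockdown libraries and passed the filter only through the controls, so no p is given for them below. With a filter of 1 FPKM in at least 4 libraries, which drops both, 12 of 68 loci were lower, or 17.6%, against 2.35% of all loci. A single locus was called higher with a pseudocount of 0.1, with quantile normalization, with no trend and without either library of sequence 3. At an unadjusted p under 0.05 from limma, 19 loci were lower and 8 higher, against 7.32% and 14.5% of all loci. On the rest of chromosome 20, 9 of 230 tested loci, or 3.91%, were lower and 3 were higher.

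The change was not shared along the whole region. The median log2 fold change was -0.06 over the 76 loci, beside 0.08 over all tested loci. Among the 62 loci that did not pass the test it was 0.05, with 29 negative and 33 positive values, and 60 of them lay within 1 on the log2 scale. The 14 lower loci, which were chosen by this change, had a median fall of 7.6-fold, from 1.68-fold to 21.2-fold, on the scale of FPKM + 1, which understates the change of low loci. At least 8-fold falls were seen in 6 loci of the region, against 0.742% of all loci. All 14 had both controls above all 4 knockdown libraries. This separation was seen in 21 of the 76 loci downward and in 8 upward, against a background of 11.2% and 22.4%. XLOC_026852 and XLOC_026907, which passed the filter only through the controls, are among the 6, the 14 and the 21. Over all loci, 21.3% of the 305 lower loci were likewise under 1 FPKM in all 4 knockdown libraries.

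**Figure D1:**
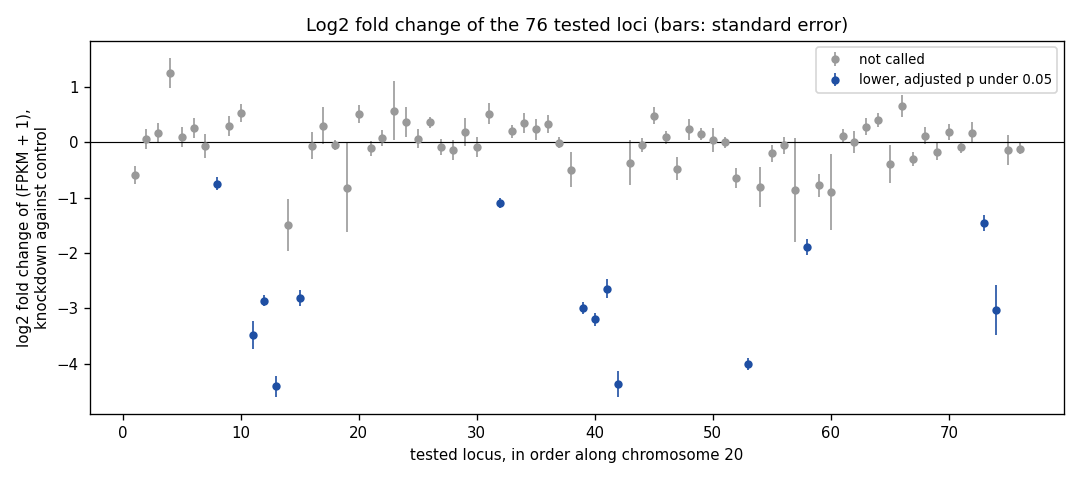
Log2 fold change of FPKM + 1, knockdown against control, for each of the 76 tested loci in their order along chromosome 20, with bars for the standard error and the 14 loci called lower in a second colour. Most of the lower loci stand out below the others, most of which lie within 1 of 0. XLOC_026874, not called at -1.49, lies below the called loci XLOC_026951, XLOC_026894 and XLOC_026835.

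The summed level of the region fell by a similar amount in every knockdown library. The sum over all its loci was 1865 and 1874 FPKM in the controls, 1000 and 942 FPKM with sequence 2 and 1010 and 1115 FPKM with sequence 3. As a share of the summed FPKM of all loci it was 0.625% and 0.586% in the controls, and lay between 0.303% and 0.310% in the knockdown libraries. The 14 lower loci, which are defined by their change, summed to 1039 and 987 FPKM in the controls, and knockdown libraries held 118 to 151 FPKM of them. The remaining loci summed to 826 and 886 FPKM in the controls and to 823 to 964 FPKM in the knockdown libraries, so these sums overlapped. As a share of the summed FPKM of all loci, the remaining loci were at 0.277% in both controls and at 0.262% to 0.268% in the knockdown libraries, which did not overlap.

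**Figure D2:**
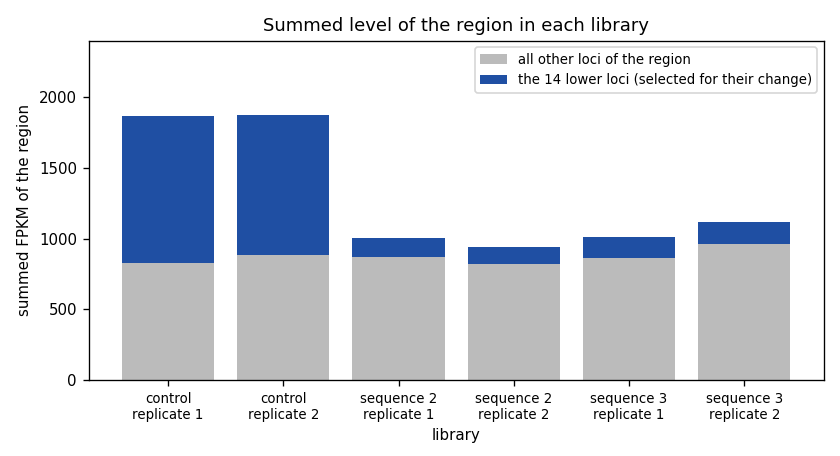
Summed FPKM of the region in each of the 6 libraries, as stacked bars from 0, with the 14 lower loci and the other loci in different colours. The part from the lower loci shrank from 1039 and 987 to between 118 and 151, while the part from the other loci stayed between 823 and 964.

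Lower loci were found in 7 of 8 consecutive windows of 500000 bases, the last cut at 5300000. Loci were assigned by their lowest position, whatever their strand. The sums of the knockdown libraries lay below both controls in 5 windows, those that start from 2500000 to 4500000. The deepest fall was in the window at 4500000, where the controls summed to 687 and 697 FPKM and the knockdown libraries to 228 to 289 FPKM, a mean of 38.6% of the control mean. The window at 3500000 fell from 443 and 438 FPKM to 202 to 237 FPKM, and the window at 3000000 from 331 and 305 FPKM to 149 to 184 FPKM, 50.2% and 51.2% of the control mean. In the window at 4000000 the sums were 110 and 124 FPKM in the controls and 86.0 to 98.5 FPKM in the knockdown libraries. Its only lower locus, XLOC_026907, had most of its level at a start at 4508091, past the end of the window. Without that locus the sums overlapped, at 74.8 and 95.4 FPKM in the controls against 85.1 to 98.5 FPKM. In the window at 2500000 the sums were 18.3 and 23.3 FPKM against 12.2 to 14.7 FPKM. The windows at 1500000, 2000000 and 5000000 had knockdown means of 81.0%, 97.3% and 93.1% of the control mean, and their groups overlapped. An exact permutation test of such sums was made, 2 libraries against 4, with a two-sided p of 2 times the smaller tail. So computed, this permutation test cannot give a p below 0.133, which the 5 separated windows had. Adjusted over the 8 windows that p was 0.213.

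Loci that did not pass the test were found in each window, the 7 with lower loci included. Without the lower loci, the sums of the window at 4500000 were 235 and 254 FPKM in the controls and 191 to 246 FPKM in the knockdown libraries. In the windows at 2000000, 2500000 and 3500000 the loci left after removing the lower ones summed higher in every knockdown library than in both controls, with 29.8 and 34.0 against 35.6 to 42.3 FPKM, 8.64 and 9.59 against 12.2 to 14.7 FPKM, and 138 and 127 against 145 to 166 FPKM. These sums leave out loci because they fell, and they are not shares of the total of each library. That total, summed over all loci, was 298386 and 319652 FPKM in the controls and 308332 to 368014 FPKM in the knockdown libraries. Of all tested loci, 22.4% were higher in all 4 knockdown libraries than in both controls. The widest gap between neighbouring lower loci was 510056 bases, from 3281783 to 3791840, and 16 tested loci lay in it, of which 0 were called.

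The highest locus of the region in the controls was among those that fell furthest. XLOC_026917 (ENSRNOG00000051235, 4541481 to 4561062, minus strand) had 372 and 371 FPKM in the controls, 19.1 and 16.3 FPKM with sequence 2 and 29.4 and 26.4 FPKM with sequence 3. It ranked 120 and 140 among 13685 loci in the controls and between 1877 and 3152 in the knockdown libraries. The knockdown libraries kept 6.13% of the control mean, with a log2 fold change of -4.01 (standard error 0.108, adjusted p = 2.69e-05 from limma). The controls differed by less than 1 FPKM, and the groups were far apart. This level is that of its summed starts. Its summed ends were 40.0 and 40.3 FPKM in the controls and 2.77 to 4.43 FPKM in the knockdown libraries.

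A run of 3 plus-strand loci between 3146562 and 3281783 fell together. Of 4 tested loci that start in it, 3 were lower. XLOC_026363 (ENSRNOG00000000795, 3146562 to 3167439) had 40.2 and 42.5 FPKM in the controls against 5.08, 4.58, 4.81 and 4.88 FPKM, with almost the same value in each knockdown library. Its log2 fold change was -2.86 (standard error 0.103, adjusted p = 8.23e-05 from limma). XLOC_026367 (ENSRNOG00000000777, 3175350 to 3220854) had 127 and 80.9 FPKM in the controls, 2.91 and 2.83 FPKM with sequence 2 and 5.19 and 4.91 FPKM with sequence 3. It fell by 21.2-fold (log2 fold change -4.41, standard error 0.192, adjusted p = 0.000139 from limma), and its 2 controls lay further apart than those of its neighbours. XLOC_026371 (ENSRNOG00000032596, 3226313 to 3281783) had 27.0 and 21.4 FPKM in the controls and 2.20 to 2.78 FPKM in the knockdown libraries (log2 fold change -2.81, standard error 0.148, adjusted p = 0.000301 from limma). The minus-strand locus XLOC_026874 (ENSRNOG00000058784, 3177679 to 3232568), which overlaps the last 2 of these, had 3.17 and 2.42 FPKM in the controls and was listed in 1 knockdown library, at 2.22 FPKM. It did not pass the test (log2 fold change -1.49, adjusted p = 0.146 from limma).

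The 3 tested loci that start between 3973420 and 3990613 all fell, and all kept between 10.1% and 15.1% of the control mean. XLOC_026901 (ENSRNOG00000000459, 3973420 to 3978845, minus strand) had 64.9 and 66.6 FPKM in the controls, 5.77 and 5.92 FPKM with sequence 2 and 8.60 and 10.04 FPKM with sequence 3 (log2 fold change -2.99, standard error 0.106, adjusted p = 7.66e-05 from limma). XLOC_026398 (ENSRNOG00000000455, 3979035 to 4009587, plus strand) had 96.1 and 94.2 FPKM in the controls, 8.58 and 7.36 FPKM with sequence 2 and 10.4 and 12.3 FPKM with sequence 3 (log2 fold change -3.20, standard error 0.117, adjusted p = 8.54e-05 from limma). These 2 loci face away from each other with 189 bases between them. Such divergent pairs, with at most 1000 bases between the loci, occurred 11 times in the region. Of the 8 pairs with both loci tested, this was the 1 pair in which both were lower, and in the other 7 neither was. XLOC_026399 (ENSRNOG00000000456, 3990613 to 3993769, plus strand) lies inside XLOC_026398 on the same strand, so reads of the 2 may not have been separated fully. It had 59.3 and 63.0 FPKM in the controls, 5.81 and 8.43 FPKM with sequence 2 and 10.1 and 12.6 FPKM with sequence 3 (log2 fold change -2.65, standard error 0.170, adjusted p = 0.00071 from limma).

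A locus at 3791840 to 3796275 fell by less. XLOC_026894 (ENSRNOG00000059770, minus strand) had 84.8 and 87.2 FPKM in the controls, 36.9 and 35.6 FPKM with sequence 2 and 41.3 and 45.8 FPKM with sequence 3. The spread within each group was small beside the difference, and its log2 fold change was -1.10 (standard error 0.0934, adjusted p = 0.00231 from limma). Close by, XLOC_026898 (ENSRNOG00000000465, 3819414 to 3822754), the highest locus of that window by its mean, had 59.3 and 49.3 FPKM in the controls and 58.6, 64.9, 81.1 and 53.3 FPKM in the knockdown libraries (log2 fold change 0.23, adjusted p = 0.533 from limma). Its groups overlapped.

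Each of 2 wide minus-strand loci spans many others. XLOC_026907 (ENSRNOG00000000443, 4316651 to 4508214) had 35.1 and 28.3 FPKM in the controls, 0.947 and 0.905 FPKM with sequence 2, and 0.653 FPKM in replicate 1 of sequence 3, while replicate 2 is listed at 0. The knockdown libraries kept 1.98% of the control mean. Its low edge is a start at 4316651, listed only in control replicate 1, at 5.16 FPKM. Its start at 4508091 had 29.9 and 28.3 FPKM in the controls, and its single listed end began at 4495465. Of 14 loci that overlap XLOC_026907 over its whole extent 7 were tested, and 0 were called, with log2 fold changes from -0.47 to 0.48. Among these XLOC_026412 (ENSRNOG00000000437, plus strand) had 24.5 and 29.0 FPKM in the controls and 26.7 to 31.2 FPKM in the knockdown libraries (log2 fold change 0.09, adjusted p = 0.712 from limma). XLOC_026920 (ENSRNOG00000051805, 4677260 to 4940256) had 79.1 and 71.5 FPKM in the controls, 27.0 and 19.8 FPKM with sequence 2 and 15.9 and 17.2 FPKM with sequence 3 (log2 fold change -1.89, standard error 0.146, adjusted p = 0.00157 from limma). Of 8 loci that overlap it 6 were tested and 0 called, with log2 fold changes from -0.90 to 0.28. XLOC_026922 (ENSRNOG00000000841, 4806108 to 4818539, minus strand), which lies inside it, had 62.5 and 58.4 FPKM in the controls and 59.7 to 77.04 FPKM in the knockdown libraries (log2 fold change 0.12, adjusted p = 0.656 from limma). When overlapping loci were merged into units, an alternative chosen after seeing the data, neither unit that holds one of these wide loci passed the test (log2 fold change -0.36, adjusted p = 0.121, and -0.50, adjusted p = 0.0837, from limma). Whether the kit kept strand is not stated, so reads of overlapping loci on opposite strands may be shared.

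**Figure D3:**
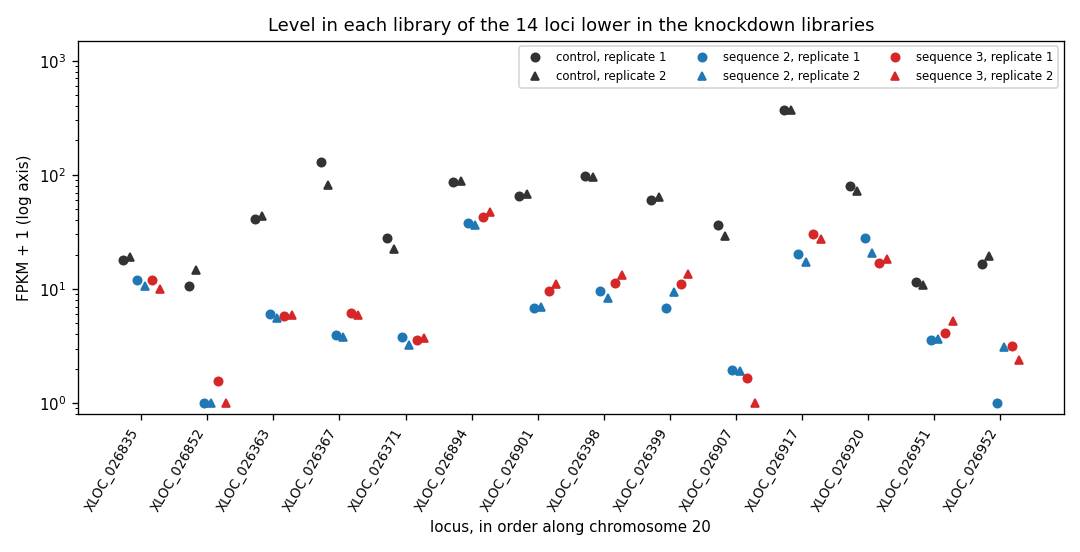
FPKM + 1, on a log axis, of each of the 14 lower loci in each library, 1 point per library, coloured by group and ordered along chromosome 20. In each locus both control points lie above the 4 knockdown points, with the highest control level at XLOC_026917 and the smallest separation at XLOC_026835.

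The remaining lower loci were at lower levels or lay near the ends of the region. XLOC_026852 (ENSRNOG00000047657, 2651599 to 2678141, minus strand) had 9.64 and 13.8 FPKM in the controls, was listed in 1 knockdown library, at 0.564 FPKM in replicate 1 of sequence 3, and is listed at 0 in the other 3. The knockdown libraries kept 1.21% of the control mean. XLOC_026951 (ENSRNOG00000046031, 5198258 to 5212624, minus strand) had 10.6 and 9.91 FPKM in the controls, 2.54 and 2.62 FPKM with sequence 2 and 3.11 and 4.25 FPKM with sequence 3 (log2 fold change -1.46, standard error 0.145, adjusted p = 0.00412 from limma). Its neighbour XLOC_026952 (ENSRNOG00000059927, 5213922 to 5215510, minus strand) had 15.5 and 18.4 FPKM in the controls, was not listed in replicate 1 of sequence 2, and had 2.11, 2.15 and 1.39 FPKM in the other knockdown libraries (log2 fold change -3.02, standard error 0.452, adjusted p = 0.0204 from limma). XLOC_026835 (ENSRNOG00000032930, 2205066 to 2211995, minus strand) had the smallest fall of the 14, with 17.0 and 18.2 FPKM in the controls, 10.9 and 9.64 FPKM with sequence 2 and 10.97 and 8.96 FPKM with sequence 3 (log2 fold change -0.75, standard error 0.125, adjusted p = 0.0306 from limma). XLOC_026835, XLOC_026951 and XLOC_026952 lost their calls without control replicate 1 (adjusted p = 0.182, 0.0658 and 0.137 from limma) and without control replicate 2 (adjusted p = 0.189, 0.0528 and 0.142). Without replicate 1 or replicate 2 of sequence 2 the adjusted p from limma of XLOC_026835 was 0.0928 and 0.111, and without replicate 2 of sequence 3 that of XLOC_026952 was 0.0524. XLOC_026951 was also not called by its summed starts or its summed ends alone (adjusted p = 0.135 and 0.109 from limma), nor XLOC_026952 with a pseudocount of 0.1 (adjusted p = 0.127), nor XLOC_026835 with the replicate number as a block (adjusted p = 0.062). XLOC_026852 and XLOC_026907 no longer had 2 libraries at 1 FPKM without either control, so they were not tested there.

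Among other named loci that did not pass the test, most of them the highest of their window, groups overlapped in some and not in others. XLOC_026942 (ENSRNOG00000000847, 5112173 to 5113112) had 51.4 and 57.9 FPKM in the controls and 49.9 to 71.3 FPKM in the knockdown libraries (log2 fold change 0.12, adjusted p = 0.712 from limma). XLOC_026338 (ENSRNOG00000000780), the highest of the window at 2000000, had 16.3 and 22.3 FPKM in the controls and 19.9 to 28.6 FPKM in the knockdown libraries (log2 fold change 0.26, adjusted p = 0.458 from limma). XLOC_026821 (ENSRNOG00000000763, 1814661 to 1818800) had 13.9 and 10.3 FPKM in the controls and 6.82 to 8.98 FPKM in the knockdown libraries, without overlap (log2 fold change -0.59, adjusted p = 0.113 from limma). In XLOC_026350 (ENSRNOG00000000786, 2515520 to 2517472) the controls had 5.57 and 7.61 FPKM and the knockdown libraries 8.76 to 11.2 FPKM, also without overlap (log2 fold change 0.52, adjusted p = 0.141 from limma). The largest positive difference was that of XLOC_026333 (ENSRNOG00000052586, 2020309 to 2025767), named here after its values were seen. It is listed at 0 in both controls and had 1.35, 2.16, 1.65 and 0.666 FPKM in the knockdown libraries. It was not called, and it passed the filter only through the knockdown libraries, so no p is given for it.

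Both sequences showed the falls. These comparisons use the same 2 control libraries, so they are not independent of each other. Sequence 2 had 13 lower and 0 higher loci among the 76, against a background of 2.45% and 1.15%, and at an unadjusted p under 0.05 from limma it had 19 and 4, against 6.84% and 9.42%. Sequence 3 had 12 lower and 0 higher loci, against a background of 2.38% and 1.77%, and at an unadjusted p under 0.05 it had 17 and 8, against 6.56% and 15.9%. In 12 loci both comparisons passed, against 2.12% of all loci. XLOC_026852 and XLOC_026907, which passed the filter only through the controls, are among the 12. XLOC_026835 passed in neither (adjusted p = 0.0667 with sequence 2 and 0.0507 with sequence 3, from limma), and XLOC_026952 passed with sequence 2 but not with sequence 3 (adjusted p = 0.0286 and 0.054 from limma). Leaving out either control leaves a single control library, and no share over all loci is given here for each sequence in that setting.

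The 2 sequences were also set against each other without the controls. Of the 76 loci 0 were lower and 0 were higher with sequence 3, and 2 and 10 were at an unadjusted p under 0.05 from limma, against a background of 0.047% at the adjusted threshold in each direction and of 1.52% and 3.93% at the unadjusted one. The smallest adjusted p in the region was 0.454 from limma, that of XLOC_026917 with a log2 difference of 0.63. Among the 14 lower loci, 11 were higher with sequence 3 than with sequence 2, and the log2 differences ran from -0.58 to 0.64. The median log2 difference was also positive over the 76 loci, at 0.14, and over all tested loci, at 0.07. XLOC_026901, XLOC_026398 and XLOC_026399 had log2 differences of 0.59, 0.46 and 0.61, and in each of them both libraries of sequence 3 lay above both of sequence 2. XLOC_026363 had a log2 difference of 0.01. XLOC_026920 went the other way, at -0.46, with both libraries of sequence 3 below both of sequence 2. With 2 libraries a sequence these differences did not pass the test, which does not show that the sequences acted alike.

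**Figure D4:**
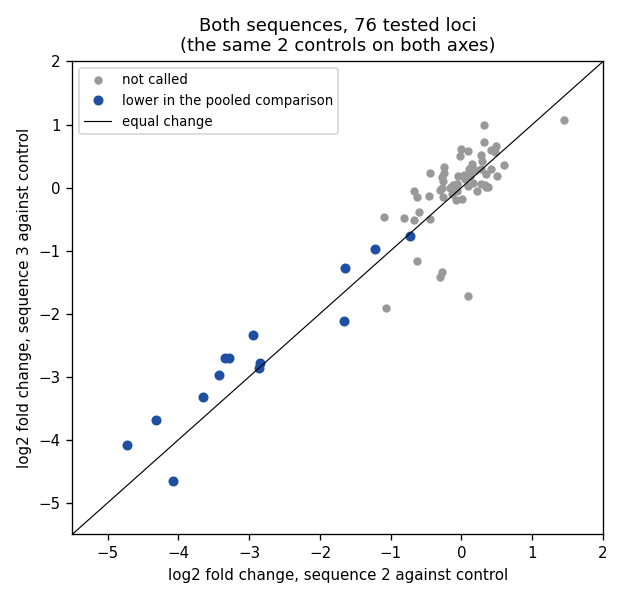
Log2 fold change of FPKM + 1 with sequence 2 (horizontal) and with sequence 3 (vertical) for the 76 tested loci, both against the same 2 controls, with the line of equal change. The lower loci lie along the line at the lower left, with 11 of the 14 above it.

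Within the lower loci, different transcript starts fell to different degrees. The 14 loci had 32 listed starts. In 22 of these both controls lay above all 4 knockdown libraries, and in 1 they lay below. Of their 20 listed ends, 14 were lower in this sense and 8 were listed only in controls. These events belong to loci chosen for their fall, so the counts describe the fall and are no test. The shares over all listed starts and ends of the series are not given here. In 7 of the 14 loci the summed starts were over 2 times the summed ends in the controls, including 2 loci with no listed end. In XLOC_026398 the outermost start, 3979035 to 3979889, had 87.3 and 85.7 FPKM in the controls and 5.43, 4.86, 7.33 and 9.25 FPKM in the knockdown libraries, 12.9-fold lower by the means. The start at 3995544 to 3995624 of the same locus had 8.73 and 8.43 FPKM in the controls and 2.43 to 3.14 FPKM in the knockdown libraries, 3.00-fold lower. The single listed end of this locus, with the same control values as that start, missed the threshold (adjusted p = 0.0502 from limma).

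In XLOC_026917 the start at 4541802 to 4542073 carried most of the level, with 332 and 331 FPKM in the controls and 13.5 to 25.1 FPKM in the knockdown libraries. The start at 4561017 to 4561062 had 40.0 and 40.3 FPKM against 2.77 to 4.43 FPKM. These were falls of 17.4-fold and 10.8-fold by the means. On this minus-strand locus the start at 4541802 lies past the only listed end, 4542340 to 4542750, so no listed end matches it. In XLOC_026894 the start at 3793913 to 3793985 had 81.5 and 84.3 FPKM in the controls and 35.6 to 45.8 FPKM in the knockdown libraries, while the start at 3796195 to 3796275, with 3.37 and 2.93 FPKM in the controls, was not listed in any knockdown library.

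Other loci changed which starts or ends were listed. XLOC_026363 had a start at 3148042 to 3148893 that neither control listed, with 1.44, 1.65, 1.04 and 1.27 FPKM in the knockdown libraries. Its starts at 3146562 and 3167079 had mean levels of 12.3 and 29.0 FPKM in the controls, and at most 0.725 and 3.61 FPKM in the knockdown libraries. XLOC_026367 had a single listed start. Its far ends at 3220591 and 3220839 had 20.4 and 15.4 FPKM and 104 and 34.6 FPKM in the controls and were not listed in any knockdown library. Its near end at 3179285 to 3179818 had 2.61 and 27.1 FPKM in the controls and 2.74 to 4.79 FPKM in the knockdown libraries, so the controls differed from each other at this end and the groups overlapped. In XLOC_026371 the start at 3226313 fell from 11.8 and 12.8 FPKM to a single listed value of 1.33 FPKM, and the start at 3242492 had 0.440 and 1.19 FPKM in the controls and 0.724 to 1.98 FPKM in the knockdown libraries.

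The wide locus XLOC_026920 was the most mixed. Its start at 4698640 had 42.8 and 33.1 FPKM in the controls and 2.11 to 4.07 FPKM in the knockdown libraries, and its start at 4921267 had 8.51 and 27.6 FPKM against at most 1.09 FPKM. Its start at 4940224 had 18.03 and 7.64 FPKM in the controls and 10.4, 11.8 and 7.89 FPKM in 3 knockdown libraries, and was not listed in replicate 2 of sequence 3. A start at 4896892 was absent from the control lists and had 9.82, 2.49 and 9.91 FPKM in 3 knockdown libraries. By its summed ends alone the locus did not pass the test (log2 fold change -0.26, adjusted p = 0.943 from limma).

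**Figure D5:**
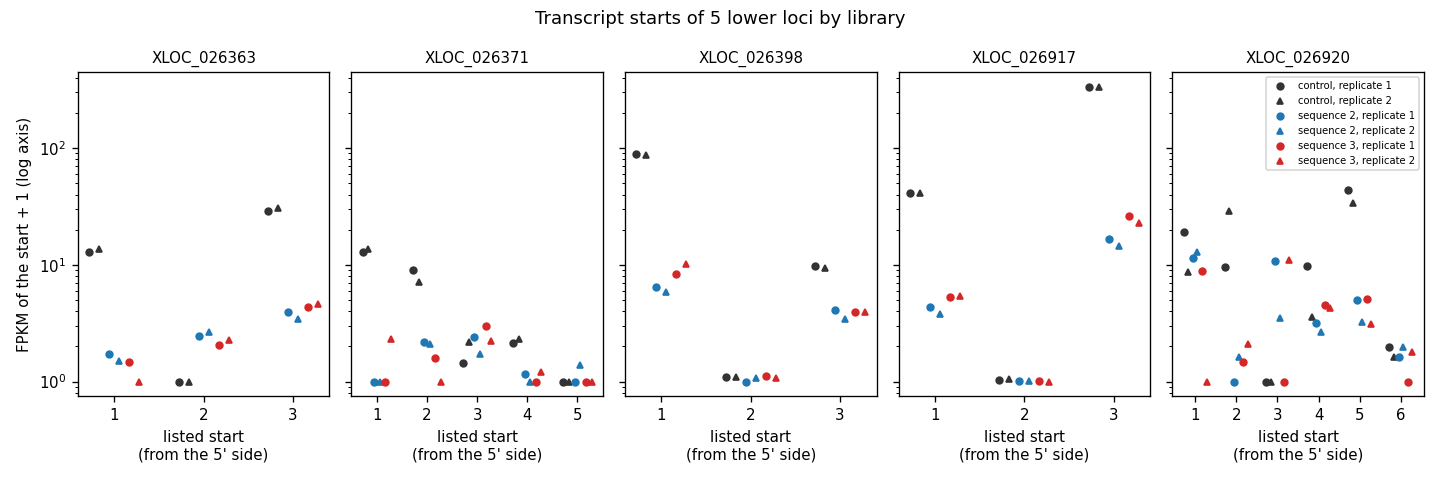
FPKM + 1 of each listed transcript start, on a log axis, in 5 of the lower loci, 1 point per library and coloured by group, with starts numbered from the 5' side of the locus. The starts with the highest control levels, such as that of 332 and 331 FPKM in XLOC_026917, fell in all 4 knockdown libraries, while some starts with low control levels overlapped or were listed only in knockdown libraries.

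The form of splicing could be followed at few sites. Exon skipping was listed with both forms at 38 sites of the region, of which 17 had a value in all 6 libraries. Controls and knockdown libraries did not overlap at 1 site in each direction, against a background of 8.59% of all 745 such sites in each direction, so these are given as values only. The value is inclusion, the share of the FPKM from the form that keeps the exon, and not the share of skipping. At the lower site, in XLOC_026900 at 3915095 to 3915186, inclusion was 23.1% and 24.6% in the controls and 13.4%, 4.71%, 17.4% and 5.33% in the knockdown libraries. At the higher site, in XLOC_026377 at 3358315 to 3358383, inclusion was 32.6% and 91.8% in the controls against 94.9% to 98.7% in the knockdown libraries, while the 2 controls were themselves far apart. For intron retention 4 of 10 sites had a value in all libraries. Of these, 1 was lower without overlap and 0 were higher, against 11.5% and 5.77% of all 104 such sites. It lay in XLOC_026897 at 3818093 and had 15.8% and 17.8% in the controls and 7.56% to 14.1% in the knockdown libraries. No test was made, and none of these 3 loci was among the 14 lower loci.

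By level and strand the lower loci are described without a test. Their median control level was 51.2 FPKM, beside 8.38 FPKM among loci that did not pass. On the minus strand lay 9 of the 14 and 33 of the 76 tested. At least 1 other locus overlapped 7 of the 14 and 28 of the 76. Class I genes exist in near-identical copies, so FPKM may be split between copies at such loci, and which loci these are could not be read from the IDs.

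Below the limit for testing were 33 loci with a level, none above 4.22 FPKM in any library. Of these, 16 were listed in both conditions, 8 in controls only and 9 in knockdown libraries only. Of the 8, only XLOC_026950 (5189390 to 5192000) was listed in both controls, at 0.912 and 1.13 FPKM, and of the 9, none was listed in all 4 knockdown libraries. For 1 further locus, XLOC_026380, no start or end was listed. The files give no read counts, so the depth behind these low values is unknown.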

How the data were processed

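Total RNA libraries (TruSeq) of 6 samples were sequenced by the authors. Tools listed in the submitters' processing notes, in no stated order, were HTSeq 0.6.1, SAMtools 0.1.18, StringTie 1.0.4, HISAT2 2.0.1, Trimmomatic 0.30 and bcl2fastq 2.17.1.14. The authors deposited FPKM per transcript start, transcript end and splicing event, without counts, and no source used here names the genome build. Depth is therefore unknown.

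Repeated rows of an event were dropped (8983 rows in all libraries). A locus took the larger of its summed starts and summed ends in each library, and 0 where unlisted, so a 0 may be a failed estimate. Starts and ends, where both were listed in the region (456 cases), were equal within 0.1% in 52.2%.

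Groups followed the sample titles. Loci with at least 1 FPKM in at least 2 libraries were tested with limma 3.58.1 in R 4.3.3 (trend, 1 mean per group, pseudocount 1, adjusted p under 0.05 over 10648 loci), checked on simulated data. Python 3.11.15, pandas 2.3.3 and matplotlib 3.10.9 were used otherwise. Loci were named when called, when among the 5 highest by mean, or when highest in a window of 500000 bases. Single events were described from the called loci. The members and lists were chosen with earlier results of these data known. Alternatives were other pseudocounts, filters, scalings and levels, leaving out each library, and a replicate block. Marker genes, gene lists and promoter sequences could not be matched by ID and are not used here.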

Additional observations from a re-analysis of the deposited data

How the results depend on the processing

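The count of 14 lower loci lay between 12 and 15 under pseudocounts of 0.1 and 0.5, no filter, a stricter filter, equal medians, quantile normalization, summed starts and no trend. With summed ends it was 9, where 2 of the 14 loci have no listed end. Without 1 library it ran from 9 to 16, with 9 without either control, where fewer loci of the region could be tested (72). For higher loci the count was 1 with a pseudocount of 0.1, with quantile normalization and with no trend, and 0 to 1 without 1 library. With sequence 2 the lower loci numbered 7 to 13 without 1 library, and the higher loci 1 with a pseudocount of 0.1. With sequence 3 they numbered 8 to 15, and the higher loci 0 to 2. The shares over all loci beside these counts for each sequence are not given here. The median log2 fold change of the region ran from -0.09 to 0.01 without 1 library. Of 244 values of the 14 loci under the alternatives, 227 kept their call, 17 lost it and 0 changed direction. By size of fall XLOC_026367 came first with a pseudocount of 1 (-4.41), XLOC_026907 with 0.5 (-4.94) and XLOC_026852 with 0.1 (-6.18). The 6 loci XLOC_026363, XLOC_026367, XLOC_026371, XLOC_026399, XLOC_026901 and XLOC_026917 were lower under each locus-level alternative. With overlapping loci merged, chosen after seeing the data, 10 of 58 units were lower. The share over all merged units is not given here, so this count has no background beside it. XLOC_026412 and XLOC_026922, which did not pass the test, changed sign to -0.36 and -0.50 as parts of units that did not pass either. Without control replicate 1 XLOC_026412 was at -0.0285, the low end of a range up to 0.21 without 1 library. Without either control, XLOC_026852 and XLOC_026907 could not be tested, while XLOC_026835, XLOC_026951 and XLOC_026952 were tested and lost their calls. The cause of the shifts between settings was not tested.

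With the replicate number as a block, 13 loci were lower and 0 higher over both sequences, with XLOC_026835 lost, 13 were lower with sequence 2 and 12 with sequence 3, and 1 was higher with sequence 3. The deviations of same-numbered libraries from their group means had correlations of -0.06, 0.18 and -0.08 across loci. The labels do not say whether such libraries were handled together, and these correlations cannot settle it. Unknown depth limits what can be said of loci near 1 FPKM.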
